A study of Mus musculus with 30 samples.

Results

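Ribosome biogenesis and nucleolar factors are the proteins that transcribe ribosomal RNA, modify and cut it, and assemble it with ribosomal proteins into the small and the large subunit. A set of 38 such genes was chosen by name. All 38 are among the 26266 genes of the young expression table, and 37 are among the 22781 genes of the aged table, in which Noc2l is not listed. The series has 30 mouse samples. Its 18 RNA-seq libraries, all from B cells of the spleen, were analysed, and 12 chromatin assays were not analysed here. The mutant mice carry a conditional knock-in of Ikzf3-L161R, a missense change in the gene for the lymphoid transcription factor Aiolos, with expression restricted to B cells, all on the C57BL/6 strain. Young mice were 2 to 3 months old, with 3 wild-type libraries and 3 libraries of homozygous mutants (Ikzf3 fl/fl). Aged mice were 15 to 18 months old and gave 3 wild-type libraries, 4 libraries of B cells of mutant mice outside the leukaemia (non-CLL) and 5 libraries of CLL cells, a murine counterpart of chronic lymphocytic leukaemia. In both of the latter groups, libraries 2, 4 and 5 are from heterozygous mice (Ikzf3 fl/+) and library 6 is from a homozygous mouse. CLL library 1, from another heterozygous mouse, has no non-CLL partner. B cells were taken from the spleen with magnetic beads, with a purity of 85% or more stated for aged mice, and CLL cells were then sorted for B220 and CD5. The labels do not say that the young libraries come from separate animals, so p-values measure the spread between these libraries. Values are TPM (a measure of transcript abundance, scaled for gene length and library total), which keep no record of read depth, so the depth of every library is unknown.

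The nucleolus is the site of ribosome production. RNA polymerase I makes a long precursor RNA there, box C/D and box H/ACA small nucleolar ribonucleoproteins (snoRNPs) methylate and pseudouridylate it, and assembly factors fold and cut it into the RNAs of the subunits. The transcription factor Myc is known to raise the expression of many of these genes when lymphocytes grow, and together with its partner Max it prefers the E-box letters CACGTG. For that reason the level of Myc is set beside the members throughout, and the promoters of the members were searched for these letters.

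In the RefSeq promoter table (build GRCm38.p6, 250 bases before to 50 bases after each start), 33 of the 38 members had an entry, and Npm1, Fbl, Rrp12, Bop1 and Rrs1 had none. CACGTG, which is its own reverse complement and so reads alike on both strands, occurred in 7 of the 33 (21.2%), beside 8.09% of 27025 genes of that table and 12.1% of the 9145 genes with an entry that were tested in the young comparison. The windows are printed with the match in capitals and up to 10 bases on either side, because these are the members whose promoters hold the letters. A match describes the sequence and is not evidence of binding.
Mybbp1a (chr11:72441357-72441376, plus strand): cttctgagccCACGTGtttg
Utp20 (chr10:88826765-88826787, minus strand): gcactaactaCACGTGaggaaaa
Wdr43 (chr17:71616222-71616247, plus strand): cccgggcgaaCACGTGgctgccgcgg
Ltv1 (chr10:13193094-13193119, minus strand): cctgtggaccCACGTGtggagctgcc
Pno1 (chr11:17211540-17211562, minus strand): tacaaccacgCACGTGttcctct
Pes1 (chr11:3963967-3963992, plus strand): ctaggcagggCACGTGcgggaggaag
Nop2 (chr6:125131813-125131838, plus strand): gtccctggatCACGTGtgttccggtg
Counted from the start that the promoter table uses, with that base as 1, the match begins between base 3 (Pes1) and base 41 (Mybbp1a) in 6 of these members, and 60 bases before the start in Nop2. For Wdr43 that start lies inside the span of the gene given with its values, which begins further upstream.

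In every library the B cell genes Ms4a1 and Cd79a were present, and Cd5, which defines the CLL sort, was at 16.3 to 36.1 TPM in CLL cells, 5.54 to 11.2 TPM in non-CLL B cells and 0.377 to 1.16 TPM in aged wild-type B cells. A set of 1106 olfactory receptor genes, which B cells are not known to use, served as a gauge of background signal in the aged table. Their median was 0 to 0.745 TPM in aged wild-type, 7.16 to 9.24 TPM in non-CLL and 1.08 to 2.71 TPM in CLL libraries 1, 2, 4 and 5, while CLL library 6 stood at 9.66 TPM. In all young libraries it was 0. Members under 2 times that level numbered 10 in non-CLL library 6, and 0 to 4 in the other non-CLL libraries and in CLL library 6. The Cd5 range of the non-CLL libraries, 5.54 to 11.2 TPM, spans their background, so Cd5 there cannot be told from background signal. The tables were normalized separately and list some members at very different levels. The wild-type mean of Npm1 was 803 TPM in the young and 82.7 TPM in the aged table, that of Fbl 147 and 13.0 TPM, and that of Nop10 159.5 and 18.3 TPM, so no level was compared across the tables.

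In young B cells, Myc, at a 3.23-fold change, was higher in homozygous mutants than in wild-type B cells, while the members as a group moved no more than the genes around them. Of the 38 members 15 were called higher (39.5%), against 38.4% of the 12219 genes tested, and 4 were called lower (10.5%), against 12.6%. The members' median log2 change was 0.19 and that of all genes tested was 0.18. Calls are from limma on log2(TPM + 1) with Benjamini-Hochberg adjusted p under 0.05 over all genes tested, two-sided, and all log2 changes and standard errors (SE) are on that scale. All 38 members passed the filter of at least 1 TPM. The groups did not overlap for 22 members that were higher, beside 44.5% of all genes, and for 5 that were lower, beside 16.9%. With a stricter filter of at least 20 TPM, 15 of 33 members were called higher and 4 lower, beside 48.1% and 13.7% of genes. The split between higher and lower depended on the scaling. TMM rescaling brought the median of all genes in this comparison to 0.00. After it, 8 members were called higher and 9 lower, beside 24.5% and 22.3% of all genes.

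Myc was at 63.7, 65.2 and 74.5 TPM in wild-type and at 240.1, 226 and 198 TPM in homozygous libraries, a log2 change of 1.69 (SE 0.10, limma adjusted p = 1.45e-05). Every homozygous library lay above every wild-type library. The members' median TPM per library was 43.3, 42.8 and 44.0 in wild-type and 49.5, 52.7 and 51.0 in homozygous libraries. These groups were also apart, by a far smaller step than Myc.

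Among the polymerase I genes, Polr1a, the largest subunit of the enzyme, and Polr1b, another core subunit, were called higher, with log2 changes of 0.40 and 0.28. Mybbp1a, a nucleolar partner of the transcription machinery, was at 0.20 (adjusted p = 0.0613). In the group of nucleolar scaffolds and chaperones 3 of 5 were called higher, beside 38.4% of all genes tested. Gnl3, the nucleolar GTPase nucleostemin, was at 67.5, 71.3 and 73.1 TPM in wild-type and 107, 104 and 105 TPM in homozygous libraries (log2 0.57, SE 0.07, adjusted p = 0.000494). Nolc1, a chaperone of snoRNPs, was at 33.8, 34.9 and 39.8 TPM against 51.3, 53.4 and 46.2 TPM (log2 0.47, SE 0.09, adjusted p = 0.00349). For both genes the groups did not overlap. The RNA helicase Ddx21 was called higher at a log2 change of 0.39.

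Of 3 of the best known nucleolar proteins, Ncl, Npm1 and Fbl, no one was called. Ncl (nucleolin, which binds precursor rRNA) was at 157, 167 and 174 TPM in wild-type and 193, 186 and 192 TPM in homozygous libraries, a log2 change of 0.20 that missed the threshold (SE 0.07, adjusted p = 0.0514). Npm1 (nucleophosmin, a histone and ribosomal protein chaperone) was at 759, 848 and 802 TPM against 760, 739 and 778 TPM, a log2 change of -0.08 with a 95% interval from -0.26 to 0.10. Fbl (fibrillarin, the methyltransferase of box C/D snoRNPs) was at 135, 145 and 160 TPM against 136, 132 and 134 TPM, a log2 change of -0.12 with an interval from -0.31 to 0.06. The groups overlapped for Npm1 and Fbl and were apart for Ncl. Npm1 has processed copies elsewhere in the genome, and how reads shared with such copies were counted is not given in the sources used here. How reads were assigned is equally unknown for Fbl and Nop10, which like Npm1 are listed at far lower levels in the aged table.

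The snoRNP proteins did not move in 1 direction. Of the box C/D proteins, the core protein Nop56 was called higher (log2 0.31), while Nop58, its partner in the core, and Rrp9, a protein of the U3 particle, were at 0.16 and 0.05 without a call. The box H/ACA core, which pseudouridylates rRNA and is also part of telomerase, was split. Its synthase Dkc1 was at 0.14 without a call, Gar1 was called higher at 0.25, and the small core proteins Nop10 and Nhp2 were called lower. Nop10 was at 153, 164 and 162 TPM in wild-type and 106, 106 and 104 TPM in homozygous libraries (log2 -0.59, SE 0.07, adjusted p = 0.000408). Nhp2 was at 73.5, 76.3 and 70.1 TPM against 55.0, 53.9 and 47.5 TPM (log2 -0.49, SE 0.08, adjusted p = 0.00173). For Nop10 and Nhp2 every homozygous library lay below every wild-type library.

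Small subunit assembly factors were called higher in 6 of 11 cases, beside 38.4% of all genes tested. Of their changes 10 of 11 were above 0, with a median of 0.33. Nat10, which acetylates the rRNA of the small subunit, was at 25.8, 24.6 and 30.3 TPM in wild-type and 39.4, 39.6 and 42.1 TPM in homozygous libraries (log2 0.57, SE 0.09, adjusted p = 0.0015). Wdr75, a protein of the small subunit processome, was at 31.7, 32.6 and 34.6 TPM against 43.5, 45.7 and 46.0 TPM (log2 0.44, SE 0.08, adjusted p = 0.00176). Both were higher in each homozygous library than in any wild-type library. Heatr1 and Utp20, large repeat proteins of the processome, and Ltv1 and Nob1, which act late in maturation, were called higher by 0.33 to 0.44. Pno1, the partner of the endonuclease Nob1, was at -0.18 with groups that did not overlap (adjusted p = 0.0615), and Wdr43, Noc4l, Rrp12 and Bysl were between 0.14 and 0.21 without a call.

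Large subunit assembly factors went both ways, with 2 called higher and 2 lower of 11, beside 38.4% and 12.6% of all genes tested. Noc3l, which travels with the early large subunit, was at 16.7, 16.8 and 16.0 TPM in wild-type and 23.5, 25.1 and 28.4 TPM in homozygous libraries (log2 0.61, SE 0.09, adjusted p = 0.00119). Its partner Noc2l was at 71.8, 68.0 and 77.5 TPM against 89.4, 102 and 104 TPM (log2 0.44, SE 0.09, adjusted p = 0.00368). Neither gene's groups overlapped. Nip7, a small assembly factor, was at 28.2, 30.1 and 31.5 TPM against 23.7, 22.5 and 25.0 TPM (log2 -0.32, SE 0.08, adjusted p = 0.0118). Rrs1, which brings ribosomal proteins into the large subunit, was at 32.5, 33.0 and 35.8 TPM against 28.4, 26.5 and 29.0 TPM (log2 -0.26, SE 0.08, adjusted p = 0.0241). Both of these were lower in each homozygous library. Bop1, Pes1 and Wdr12, which form a complex, and the methyltransferase Nop2, Mrto4, Wdr74 and Rrp1b were between -0.10 and 0.21 without a call.

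**Figure D1:**
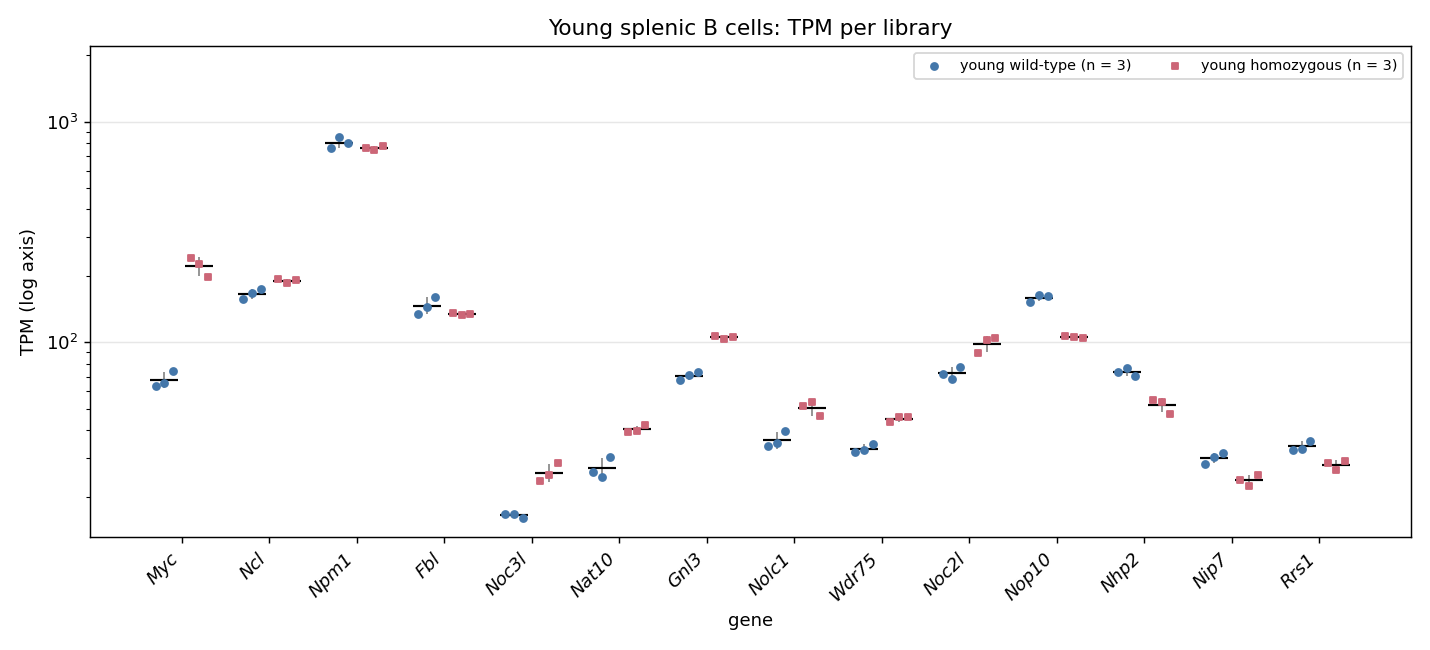
TPM per library (log axis) of Myc and 13 members in young wild-type (n = 3) and homozygous (n = 3) B cells, with the mean as a black line and the SD as a grey bar. Myc rises from 63.7 to 74.5 TPM in wild-type to 198 to 240.1 TPM in homozygous libraries, whereas Npm1 and Fbl overlap and Nop10, Nhp2, Nip7 and Rrs1 lie lower in homozygous libraries.

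In the young comparison the change of a member went with the length of its gene in the genome. Across the 38 members Spearman's rho between the log2 change and the span from start to end was 0.56. Across 6185 genes with a mean of at least 20 TPM over the young libraries it was 0.42. Genes are not independent replicates, so these values are descriptions. In the 19 members with a span below the members' median of 12916.5 bases, 5 were called higher and 4 lower, with a median log2 change of 0.05. Among the 19 longer members 10 were called higher, with a median of 0.28, and all 4 members called lower are in the shorter set. The same split of the genes with a mean of at least 20 TPM gave medians of -0.02 and 0.32, a like difference. Calls were not counted over all shorter and longer genes, so the members' counts are a description only. Nop10 (chromosome 2, 112261926 to 112262898) has the shortest span of the members, 973 bases, and the largest fall.

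**Figure D2:**
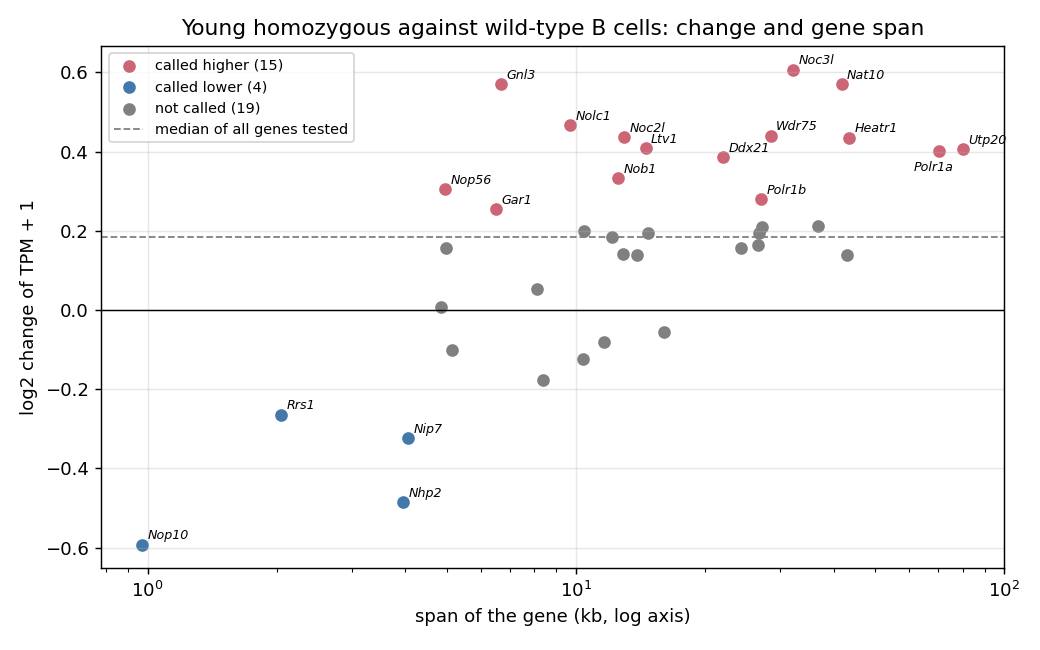
The log2 change of each of the 38 members in young homozygous against wild-type B cells (vertical axis) by the span of the gene in kb (log axis), with called members named. The 4 members called lower are among the shortest genes, and the dashed line is the median of all genes tested, 0.18.

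Other genes of the pathway came from a list of 104 that holds further polymerase I, assembly and RNA exosome genes. Of these 42 were called higher (40.4%) and 12 lower (11.5%), beside 38.4% and 12.6% of all genes tested. Their median log2 change was 0.19, and that of all genes 0.18. Mdn1, the giant ATPase of large subunit maturation, was at 15.0 ± 1.61 TPM in wild-type and 29.6 ± 5.37 TPM in homozygous B cells (SD, n = 3 each), a log2 change of 0.92 (SE 0.14, limma adjusted p = 0.00117). Bms1, a GTPase of the small subunit processome, was at 37.9 ± 4.35 and 60.7 ± 2.58 TPM (log2 0.67). Imp3, a small protein of the U3 particle, was at 86.9 ± 6.75 TPM in wild-type and 55.0 ± 10.1 TPM in homozygous B cells (log2 -0.66). The wider pathway held calls in both directions, at shares near those of all genes.

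Transcripts of other cells differed between the young groups. The summed level of 12 myeloid markers was 1442 to 5352 TPM in wild-type and 196 to 453 TPM in homozygous libraries, with 3 of the 9 tested called lower and none at 0 in any library (0 were called higher by limma). Their part in the results was not tested, and in bulk libraries fewer cells of a type and less RNA per cell cannot be told apart. With wild-type libraries 1 and 2, which have the highest myeloid sums, left out together, the members' median log2 change was 0.18. That of all genes tested was 0.15. In that fit the 1 remaining wild-type library is assumed to vary like the homozygous ones, so its calls are not given.

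In CLL cells compared with wild-type B cells of aged mice the members leaned upward and few were called. Of 37 members 2 were called higher, Nop10 and Nop56 (5.41%), against 2.94% of the 21202 genes tested, and 0 lower, against 0.604%. At an unadjusted p under 0.05 in the same limma fit 9 were higher and 0 lower. No count over all genes at that p is set beside these, so they are a description only. The log2 change was above 0 in 33 of 37 members, with a median of 0.47, while the median of all genes tested was 0.93. Most of those genes lie at low levels, where the background differs between the groups. With the filter of at least 20 TPM the median of all genes was -0.04 and that of 36 members 0.49, with 2 called higher beside 1.38% of genes and 0 lower beside 0.76%. TMM rescaling left 24 of 37 members above 0, with a median of 0.15 and 1 called higher (Nop10), beside 16.7% of genes called higher and 4.02% lower. The median of all genes was still 0.73 after it.

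Myc was at 116, 157 and 84.7 TPM in aged wild-type libraries and at 770.3, 187, 225, 389 and 266 TPM in CLL libraries 1, 2, 4, 5 and 6 (log2 1.46, SE 0.37, adjusted p = 0.0309). All CLL libraries lay above all wild-type libraries. Nop10 was at 23.6, 20.9 and 10.5 TPM against 79.3, 46.7, 45.7, 69.5 and 59.2 TPM in the same order (log2 1.70, SE 0.37, adjusted p = 0.00427), a 3.25-fold change on this scale. The groups were apart by a wide gap. Nop56 (chromosome 2, 130274367 to 130279313) was at 84.4, 71.7 and 68.0 TPM against 227, 116, 164, 195 and 163 TPM (log2 1.17, SE 0.32, adjusted p = 0.0308). Its groups were apart as well. Groups did not overlap for 8 members, all higher in CLL cells, where 29.0% of all genes were apart in this direction and 2.55% in the other.

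Ncl was at 411, 307 and 343 TPM in aged wild-type and 353, 346, 448, 382 and 374 TPM in CLL libraries, a log2 change of 0.11 with a 95% interval from -0.48 to 0.70. Npm1 was at 82.4, 76.6 and 89.0 TPM against 102, 74.5, 85.0, 81.7 and 84.7 TPM, a change of 0.04 with an interval from -0.60 to 0.69. Fbl was at 12.2, 15.7 and 11.1 TPM against 11.5, 11.6, 8.44, 10.5 and 13.8 TPM, a change of -0.20 with an interval from -1.14 to 0.73. These most abundant or best known nucleolar proteins overlapped between the groups, and the signs for Ncl and Npm1 turned after TMM rescaling. In CLL library 6 Fbl was close to the background of that library.

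By role, the 3 polymerase I genes were between 0.56 and 0.96 without a call, Polr1b being nearest to the threshold (adjusted p = 0.056). The 4 box H/ACA proteins were all above 0, with Gar1 at 1.05 and Nhp2 at 0.68 without a call beside Nop10. Rrp9 and Nop58 of the box C/D group were at 0.85 and 0.40, with groups apart and no call. Small subunit factors had a median of 0.27, from -0.10 (Wdr75) to 0.90 (Bysl). Large subunit factors had a median of 0.53, from -0.25 (Rrs1) to 1.17 (Rrp1b, adjusted p = 0.0529), and none of these single genes passed the threshold. Of 103 other pathway genes 3 were called higher (2.91%, beside 2.94% of all genes tested): Rrp36, Rrp7a and Ppan. Rrp7a, a small subunit assembly factor, was at 47.4 ± 15.2 TPM in wild-type (SD, n = 3) and 109 ± 21.1 TPM in CLL cells (n = 5), a log2 change of 1.22 (SE 0.33, limma adjusted p = 0.0312).

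Which members passed here turned on single libraries. No member was called without aged wild-type library 3, which has the lowest Nop10, and 6 were called without CLL library 1. In these fits 265 of 22109 and 4771 of 20685 genes were called higher. No member was called after subtraction of the background level or with quantile normalization either. Few genes of any kind were called higher in those fits, 48 of 13044 and 33 of 21202.

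In CLL cells against the non-CLL B cells, 5 of 37 members were called higher (13.5%), against 0.744% of the 22316 genes tested, and 0 lower, against 5.02%. This fit did not pair the libraries that come from the same mouse. At an unadjusted p under 0.05 in limma 16 were higher and 0 lower, again without a count over all genes to set beside them. Wdr43, Nop10, Mybbp1a, Nhp2 and Nop58 were the 5, with 1.84- to 2.50-fold changes. The members' median log2 change was 0.61, with 34 of 37 above 0, while the median of all genes tested was -0.77. With the filter of at least 20 TPM, 2 of 35 members were called higher (Mybbp1a and Nop10) beside 1.34% of genes, with 1.9% of genes lower, and the median of all genes was -0.06. TMM rescaling put all 37 members above 0, with a median of 1.33, and called 6 higher, beside 1.31% of genes higher and 0.677% lower. The median of all genes was -0.23 after it. Quantile normalization gave a median of 0.63, with 36 of 37 members above 0, and called none (0), Nop10 being at an adjusted p of 0.0738 in limma. The groups did not overlap for 8 members, all higher in CLL cells, beside 1.17% of all genes in this direction and 7.51% in the other. This comparison uses the same CLL libraries as the comparison with aged wild-type B cells, so the results are not independent of each other.

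Wdr43 (chromosome 17, 71616178 to 71659031), a protein of the small subunit processome, was at 153, 145, 224 and 57.6 TPM in non-CLL libraries 2, 4, 5 and 6 and at 384, 251, 488, 349.9 and 227 TPM in CLL libraries 1, 2, 4, 5 and 6. The groups were apart, though non-CLL library 5 and CLL library 6 nearly met (log2 1.32, SE 0.33, adjusted p = 0.0335). Nop10 was at 29.5, 28.3, 26.0 and 14.7 TPM in the non-CLL libraries, below every CLL library (log2 1.27, SE 0.31, adjusted p = 0.0223). Mybbp1a (chromosome 11, 72441327 to 72451770) was at 121, 143, 147 and 62.5 TPM against 264, 217, 285, 268 and 243 TPM (log2 1.17, SE 0.28, adjusted p = 0.0199). Its groups were apart by a wide gap.

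Nhp2 (chromosome 11, 51619773 to 51623718) was at 116, 115, 215 and 88.9 TPM in non-CLL and 329.5, 182, 348, 232 and 210.4 TPM in CLL libraries (log2 0.99, SE 0.29, adjusted p = 0.0446). Nop58 (chromosome 1, 59684961 to 59711510) was at 152, 144, 250.7 and 144 TPM against 374, 259, 394, 304 and 244 TPM (log2 0.88, SE 0.27, adjusted p = 0.0488). For Nhp2 and Nop58 the groups overlapped through non-CLL library 5. Ncl in the non-CLL libraries was at 233, 248, 356 and 210.2 TPM (log2 0.56, adjusted p = 0.103), Npm1 at 62.6, 61.3, 96.2 and 66.8 TPM (log2 0.27) and Fbl at 15.5, 10.8, 14.6 and 4.40 TPM (log2 0.09). None of these 3 passed the threshold, and their groups overlapped.

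Since CLL and non-CLL cells numbered 2, 4, 5 and 6 come from the same mouse, each mouse gives its own difference. Members were higher in the CLL cells in 25, 32, 22 and 32 of 37 cases in mice 2, 4, 5 and 6, with medians of 0.15, 0.85, 0.10 and 0.86. Across all genes the medians were -0.82, -1.19, -0.73 and 0.02. Higher in the CLL cells of all 4 mice were 15 members, beside 4.36% of all genes, and lower in all 4 was 1, Rrp12, beside 34.0%. Those shares include many genes near the background. In mice 2, 4 and 5 it was 7.16 to 8.52 TPM in non-CLL and 1.08 to 2.71 TPM in CLL cells. The shares were not counted for genes of at least 20 TPM, whose median in the unpaired fit was -0.06. The differences within mice 2, 4, 5 and 6 were 0.71, 1.74, 0.64 and 1.96 for Wdr43, 0.65, 0.67, 1.39 and 1.94 for Nop10, and 0.83, 0.99, 0.86 and 1.94 for Mybbp1a. Mice 4 and 6 showed larger steps over the members than mice 2 and 5. CLL library 2 had the highest summed myeloid markers of the CLL libraries, 3459 TPM, and their part in its small step was not tested. With the mouse as a block in limma, 3 members were called higher (Mybbp1a, Nop10 and Wdr43) and 0 lower. Of all 22316 genes, 120 were called higher and 577 lower in that fit.

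Myc was at 60.3, 115, 130.8 and 64.8 TPM in the non-CLL libraries, below every CLL library (log2 1.86, SE 0.37, adjusted p = 0.0131). Within mice 2, 4, 5 and 6 it was higher in the CLL cells by 1.62, 0.96, 1.57 and 2.02. Mouse 4 had the smallest step in Myc and, together with mouse 6, one of the larger median steps over the members. The members' median TPM per library was 45.6, 39.7, 53.1 and 32.4 in non-CLL, 50.2, 45.8 and 39.6 in aged wild-type, and 68.1, 46.7, 72.9, 63.8 and 61.0 in CLL libraries. CLL library 1 had the highest Myc and CLL library 4 the highest median over the members. Within a group the libraries are too few for a correlation, and none is given.

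**Figure D3:**
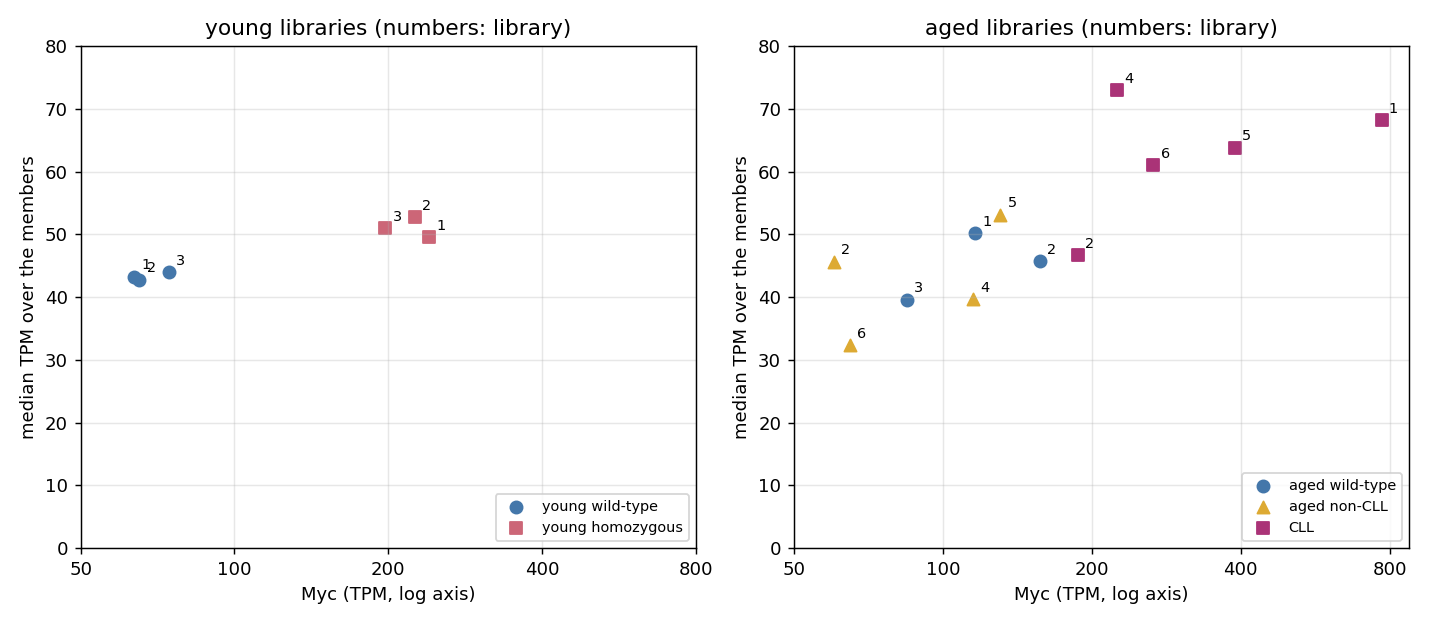
Median TPM over the members (vertical axis) against Myc in TPM (horizontal log axis) for each young (left) and aged (right) library, with the library number beside each point. CLL library 1 has the highest Myc, 770.3 TPM, at a members' median of 68.1 TPM, and CLL library 4 has a median of 72.9 TPM at 225 TPM of Myc.

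By role, 2 of 4 box H/ACA proteins, 1 of 4 box C/D proteins, 1 of 3 polymerase I genes and 1 of 11 small subunit factors made up the calls. Of all genes tested 0.744% were called higher. The 5 scaffolds and chaperones were between 0.27 and 0.64, and the 10 large subunit factors between -0.32 (Rrs1) and 0.97 (Rrp1b), all without a call. Bop1, Nat10 and Rrp1b were just short of the threshold, with adjusted p = 0.0536, 0.0534 and 0.0542. Of 103 other pathway genes 4 were called higher (3.88%), Rrp7a, Nop16, Brix1 and Exosc5, and 0 lower in the limma fit. The shares of all genes were 0.744% and 5.02%. Brix1, a large subunit assembly factor, was at 222 ± 48.4 TPM in non-CLL (SD, n = 4) and 467 ± 87.0 TPM in CLL cells (n = 5), a log2 change of 1.07 (SE 0.26, adjusted p = 0.0215).

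Markers of other cells and the background moved with these groups, and their part in the results was not tested. The summed level of 6 natural killer cell markers was 153 to 745 TPM in non-CLL and 10.9 to 62.2 TPM in CLL libraries, with 5 of 6 called lower in CLL cells. For 6 plasmacytoid dendritic cell markers the sums were 368 to 1583 and 140 to 288 TPM, with 4 of 6 called lower, and Cox6a2 was at 0 in 2 CLL libraries. For 7 T cell markers they were 318 to 536 and 132 to 571 TPM, with 3 of 7 called lower. For 10 myeloid markers they were 268 to 557 TPM in non-CLL and 238 to 562 TPM in CLL libraries 1, 4, 5 and 6. CLL library 2 stood at 3459 TPM, and none of the 10 was called (0 in limma). The summed proliferation markers were 791 to 2064 TPM in non-CLL and 908 to 2214 TPM in CLL libraries, which overlap widely. Without non-CLL library 6, which has the lowest members' median, no member was called, and with CLL and non-CLL library 6 both left out 6 were: Mybbp1a, Nhp2, Nop10, Nop58, Rrp1b and Wdr43. In these fits 83 of 22454 and 261 of 22292 genes were called higher.

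**Figure D4:**
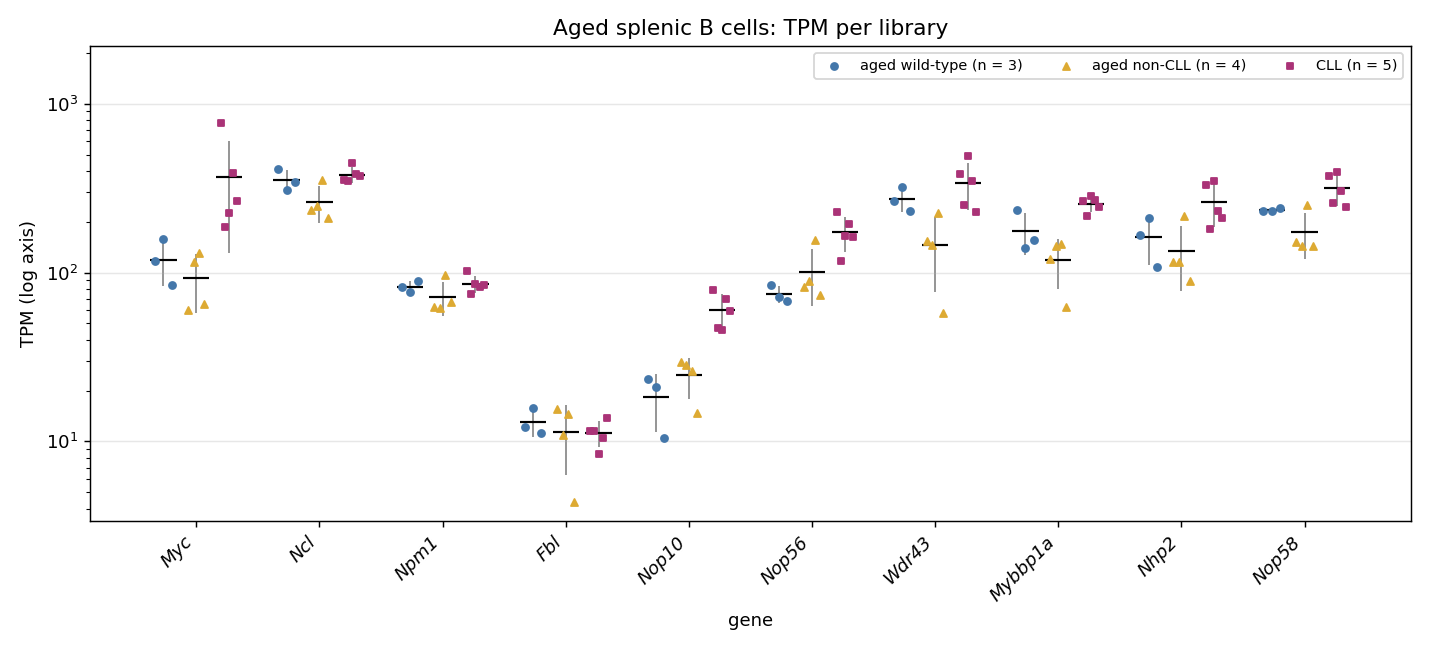
TPM per library (log axis) of Myc and 9 members in aged wild-type (n = 3), non-CLL (n = 4) and CLL (n = 5) libraries, with the mean as a black line and the SD as a grey bar. Nop10 in CLL cells, 45.7 to 79.3 TPM, lies above all other libraries, while Ncl, Npm1 and Fbl overlap.

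In non-CLL B cells compared with wild-type B cells of aged mice the members did not share a direction at the deposited scale. Of 37 members 0 were called higher, against 55.8% of the 22150 genes tested, and 1, Wdr43, was called lower (2.70%), against 1.48%. At an unadjusted p under 0.05 in limma 0 were higher and 1 lower, likewise without a count over all genes. With the filter of at least 20 TPM, 0 of 34 members were called in either direction, beside 0.942% of genes higher and 0.208% lower. The median log2 change was -0.02 with 18 of 37 above 0, and the median of all genes tested was 1.65. These libraries also enter the comparisons of CLL cells, so the results are not independent of them. The direction depended on the scaling. After TMM rescaling all 37 changes were below 0, with a median of -0.77. Then 14 members were called lower, beside 12.4% of genes lower and 47.0% higher. The median of all genes was still 1.19, so that rescaling did not centre the genes here.

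Wdr43 in aged wild-type libraries was at 267, 323 and 230.6 TPM, above the 57.6 to 224 TPM of the non-CLL libraries by a narrow gap (log2 -1.05, SE 0.40, adjusted p = 0.0444). This call was lost in limma without non-CLL library 2 or 4 (adjusted p = 0.0518 and 0.0593) and without wild-type library 1, 2 or 3 (0.0952, 0.137 and 0.0692). It was also lost with the filter of at least 20 TPM, with quantile normalization and after subtraction of the background (adjusted p = 0.24, 0.317 and 0.154). Wdr75 and Wdr43 were below, and Rrp12 above, every wild-type library, beside 2.33% and 53.7% of all genes in these directions. Rrp12 averaged 25.9 TPM in non-CLL and 18.4 TPM in wild-type libraries, whose backgrounds were 7.16 to 9.24 TPM and 0 to 0.745 TPM. Ncl, Npm1 and Fbl were at -0.45, -0.22 and -0.29 and Myc at -0.40, all without a call. The 3 largest changes after Wdr43 were Mybbp1a at -0.62, Ltv1 at -0.61 and Nob1 at 0.59, with overlapping groups. Nob1 averaged 25.9 TPM in non-CLL and 16.7 TPM in wild-type libraries, which differ in background as given for Rrp12. Of 103 other pathway genes 11 were called lower (10.7%, beside 1.48% of all genes), among them Brix1 (log2 -1.03, limma adjusted p = 0.00222). Called higher were 2 (1.94%, beside 55.8% of all genes), Urb1 and Urb2. These were at means of 12.2 and 14.7 TPM beside a background of 7.16 to 9.24 TPM. Natural killer cell markers were called higher in 5 of 6 and T cell markers in 4 of 7 cases, and their part in the result was not tested.

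**Figure D5:**
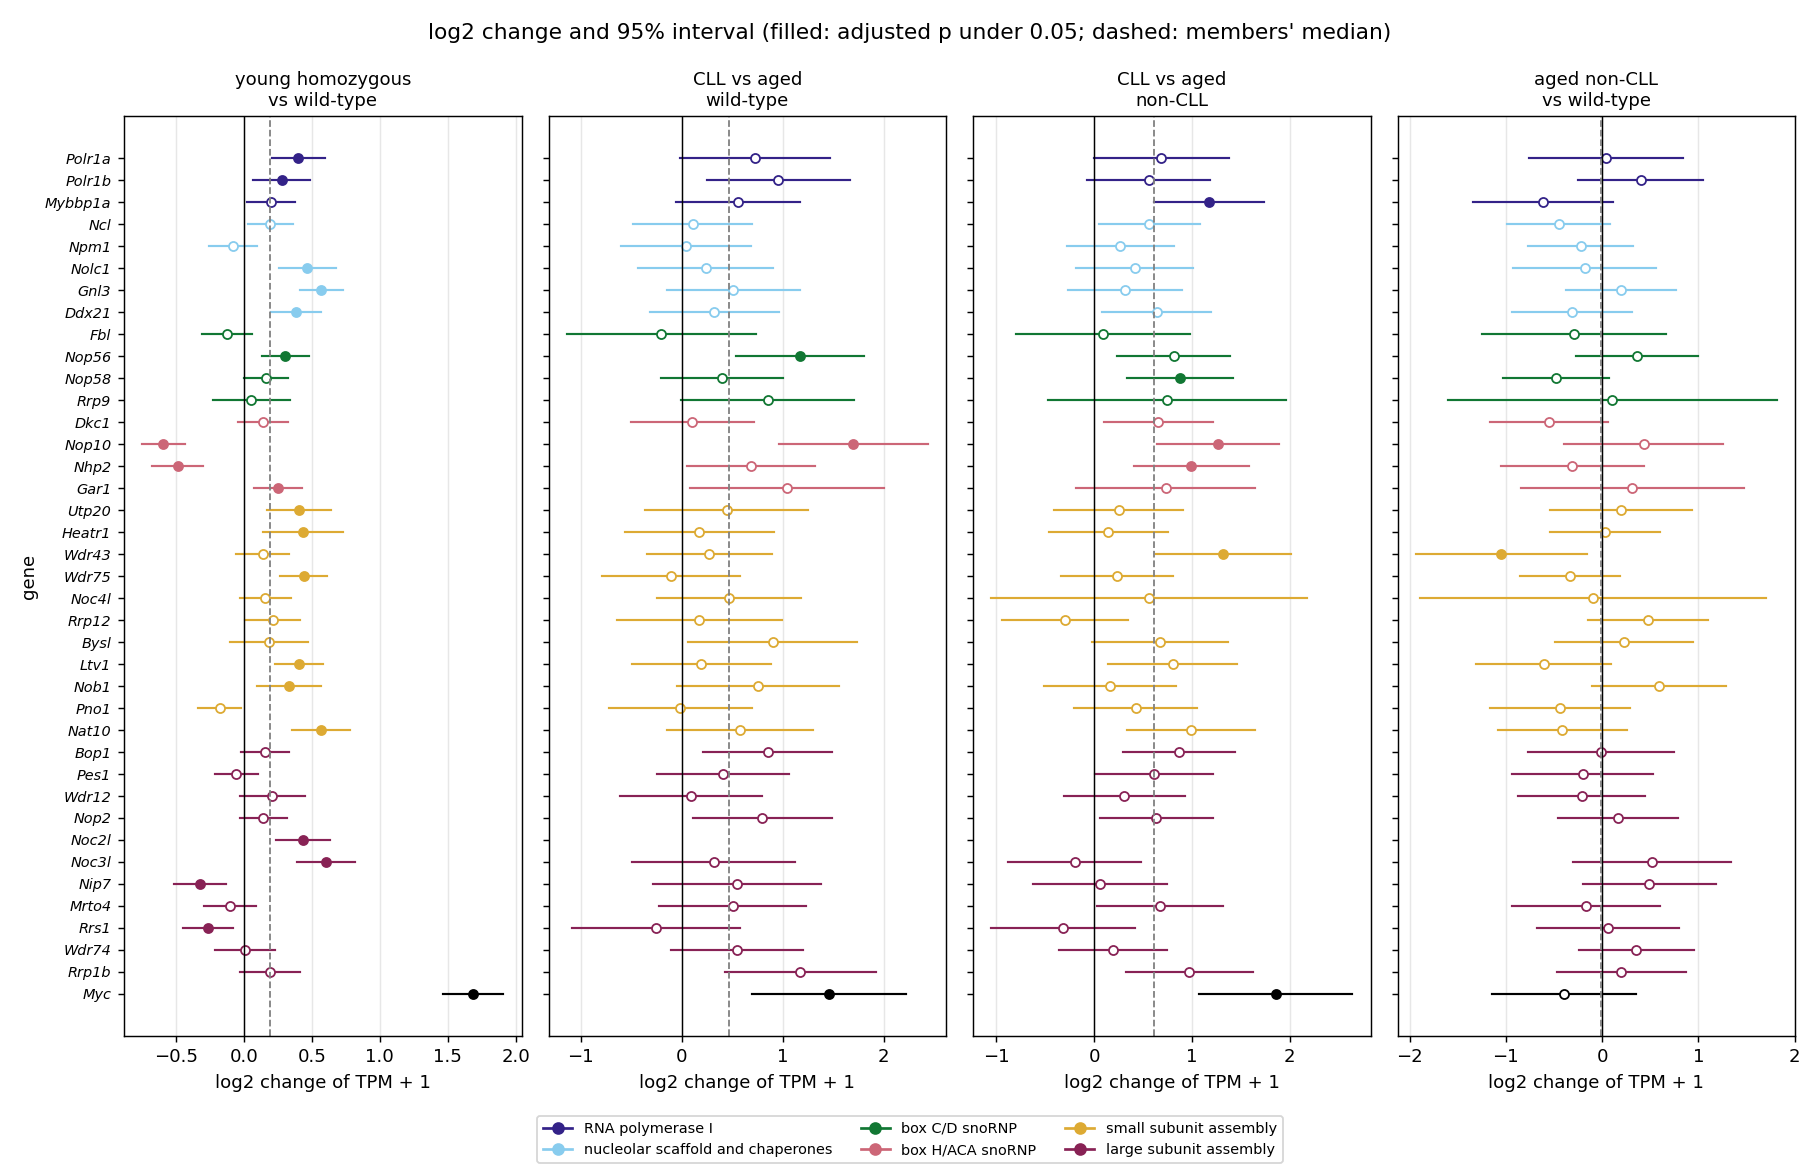
log2 change with its 95% interval for each member, grouped by role, and for Myc, in the 4 comparisons; the horizontal scale differs between panels, filled points passed the threshold and the dashed line is the members' median. The young panel has 15 members called higher and 4 lower, and Nop10 and Nhp2 lie left of 0 there and right of 0 in both CLL panels.

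Nop10, Nhp2 and Wdr43 were called in opposite directions in different comparisons. Wdr43 was lower in non-CLL B cells than in aged wild-type B cells and higher in CLL cells than in non-CLL B cells, and these comparisons share the non-CLL libraries. Nop10 and Nhp2 were both lower in young homozygous than in young wild-type B cells, and both were higher in CLL cells than in non-CLL B cells. The young and aged comparisons share no library and come from tables that were normalized separately, and the difference between them was not tested. The 7 members with CACGTG in the printed windows had a median log2 change of 0.14 in young homozygous B cells, where Ltv1 and Utp20 were called higher, and of 0.63 in CLL against non-CLL cells, where Mybbp1a and Wdr43 were called higher. Pno1, with the same letters from base 38 on, was at -0.18 and 0.42 in these comparisons without a call. The 7 changes ran from -0.18 to 0.41 in the young comparison and from 0.25 to 1.32 in CLL against non-CLL cells, where all 7 were above 0, as were 34 of all 37 members.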

How the data were processed

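The 18 RNA-seq libraries form the 5 groups described above. The authors deposited TPM values in both tables. This unit is named in the labels of aged samples, and young values sum to the full scale of TPM in every library. The submitters' processing notes list MACS2 2.2.0, STAR 2.4.0.1, Bowtie2 2.3.4.1 and mm10, and do not tie a tool to an assay. For the quantification tool, annotation, strandedness and filters, nothing is stated in the labels. TPM carry no read counts, so no counting interval can be given. Left out were 26 young and 25 aged entries whose names had become dates, and 887 young entries with no gene name, which hold 4.44% to 9.36% of TPM per library. For 3 of the 12 chromatin samples the labels disagree on the genotype, and all 12 were not analysed here.

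Each comparison used the 2 groups it names, and each table was fitted on its own. Genes that reached 1 TPM in a number of libraries equal to the size of the smaller group were tested with limma 3.58.1 in R 4.3.3 (trend and robust estimation) on log2(TPM + 1), two-sided, with Benjamini-Hochberg adjustment over all genes tested and a threshold of 0.05. This scale understates changes of low genes. TMM factors (trimmed mean of log ratios between libraries) were computed in R on the TPM. Spans, promoters and coordinates are from RefSeq (GRCm38.p6, the assembly of mm10). Correlations used SciPy 1.17.1 in Python 3.11.15. The procedure was also run on simulated data with independent normal noise. The simulated data held neither the background differences nor the shared mice of the aged groups, so they cannot show how calls behave under those. CLL and non-CLL cells of equal number come from the same mouse per the series' design text, and their deviations from the group means correlated at -0.03, 0.03, 0.08 and 0.13 in mice 2, 4, 5 and 6. The members, the role groups and the other lists were chosen with earlier results of these data known. Values in every library are given for Myc, Ncl, Npm1 and Fbl and for up to 6 called members per direction with the largest log2 change, plus any member called in opposite directions. For other pathway genes counts are given, with up to 2 of the largest called changes per list and direction. Alternatives were other pseudocounts, filters, scalings, library weights, blocks, a fit of all 3 aged groups, subtraction of the olfactory background and leaving out each library.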

Additional observations from a re-analysis of the deposited data

Results flagged for a closer look

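In groups of 4 or 5 libraries, 7 values of members stood apart from the rest of their group by Dixon's 95% criterion, out of 76 groups of values checked. Chance flags about 1 in 20 groups. In non-CLL library 5, Npm1 was at 96.2 TPM, Nop58 at 250.7 TPM and Rrs1 at 38.8 TPM, each the highest of the 4 libraries. In non-CLL library 6, Rrp9 was at 1.66 TPM and Heatr1 at 28.2 TPM, each the lowest. In CLL library 1, Gnl3 was at 211 TPM and Pno1 at 170.4 TPM, each the highest of the 5 libraries. Wdr75 moved in opposite directions: all young homozygous libraries were above young wild-type (log2 change 0.44), and all non-CLL libraries were below aged wild-type (log2 change -0.33). The latter change was not called, and the difference between them was not tested.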

How the results depend on the processing

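Both the counts of called members and the directions moved with the scaling. After TMM rescaling, members above 0 went from 29 to 18 of 38 (young), from 33 to 24 of 37 (CLL against wild-type) and from 18 to 0 of 37 (non-CLL against wild-type). The median of all genes after it was -0.002, 0.73 and 1.19 in these comparisons, so only the young one was centred. In young homozygous against wild-type B cells, members called higher (15) and lower (4) became 8 and 9 after TMM rescaling and 7 and 8 after quantile normalization. Of 12219 genes, quantile normalization called 3091 higher and 2519 lower. Library weights gave 24 members higher, beside 6026 genes. Leaving out wild-type libraries 1 and 2 together gave a members' median of 0.18, beside 0.15 for all genes. Leaving out 1 library at a time gave 11 to 16 members higher and 2 to 4 lower. In those fits 3469 to 4984 genes were called higher and 1042 to 1876 lower. With the replicate number as a block the counts stayed at 15 and 4. Whether equal young numbers pair the libraries is not settled (same-number correlations -0.10, 0.24 and 0.32, unequal numbers -0.33 to 0.21). Cells known to share a mouse correlated at only -0.03 to 0.13, so this measure cannot decide it.
For CLL against aged wild-type B cells, 2 members called higher became 5 with a pseudocount of 0.1, 1 with TMM, 9 with weights and 6 in the fit of all 3 aged groups. Of all 21202 genes, 8414, 3532, 10971 and 6224 were called higher in these fits, against 623 in the main fit. None was called with quantile normalization, background subtraction or the replicate block (0 each), the block being a shared number only. Over all genes, 33, 48 and 2 were called higher in these 3 fits. Leaving out 1 library gave 0 to 6 members, while 265 to 7744 genes were called higher.
For CLL against non-CLL B cells, 5 became 2 with a pseudocount of 0.1, 2 with the filter of 20 TPM, 0 with quantile normalization, 12 with weights, 3 with the replicate block of mice, 9 in the fit of 3 groups, and 0 to 9 without 1 library. Over all 22316 genes, 74, 83, 499, 120 and 213 were called higher with that pseudocount, quantile normalization, weights, block and fit of 3 groups. No member was called lower in either CLL comparison under any alternative run (0).
For non-CLL against aged wild-type B cells, 0 members called higher became 4 with weights and 0 to 1 without 1 library. With weights 14227 of 22150 genes were called higher. The 1 called lower became 14 with TMM, 5 with weights, 0 with the filter of 20 TPM, quantile normalization or background subtraction, and 0 to 5 without 1 library. Over all genes, 2751 were called lower with TMM and 1011 with weights. With the filter of 20 TPM, quantile normalization and background subtraction, 15, 24 and 12 genes were. No paired analysis was possible there because the groups share a single number. The cause of these shifts was not tested.
Among the members whose values are given in every library, an alternative turned the sign in 13 cases, all for Ncl, Npm1 or Fbl, which had no call. The other members were not followed singly. Ncl was at -0.0071 (young) and -0.21 (CLL against wild-type) with TMM and at -0.023 with the block. Npm1 in CLL against wild-type was at -0.27 with TMM, -0.062 with weights, -0.012 with background subtraction, and -0.020 and -0.0083 without CLL library 1 and wild-type library 2. Fbl in CLL against non-CLL was at -0.20 with weights, -0.34 without both libraries of mouse 6 (chosen after seeing the data) and -0.27 to 0.27 without 1 library, lowest without non-CLL library 6. In non-CLL against wild-type it was at 0.10 with weights and at -0.47 to 0.064 without 1 library, highest without that library. Depth is unknown, and members near the background of a library, Fbl and Gar1 among them, have no reliable level there.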
